A study of Homo sapiens with 6 samples.

Results

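In all, 10 genes of the integrated stress response were followed in newly made and total RNA of human MOLM-13 cells. They are the transcription factor genes ATF4, ATF5, ATF3 and DDIT3, the inhibitor and feedback genes TRIB3, SESN2, DDIT4 and PPP1R15A, and the enzyme genes CHAC1 and ASNS. These 10 genes, of 25420 listed by Entrez identifier, were picked by name, and the choice was made with their C646 against DMSO values already known. Each had 1 annotated 3′ UTR entry, 10 of 58136 in all. Their values in that contrast are therefore given as a description, with no p-value. Counts of those that met a cutoff are printed beside the share or the number of all genes that did.

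MOLM-13, a line from a human secondary acute myeloid leukaemia, was exposed for 2 h to 10 µM C646, an inhibitor of the histone acetyltransferases CBP and p300, or to its solvent DMSO. In all 6 libraries, 3 per group, 100 µM 4-thiouridine (4sU) was present during the last 1 h. In SLAM-seq, incorporated 4sU is alkylated and read as a T-to-C conversion, so that reads with at least 1 conversion (T>C reads) come largely from RNA made during labelling. A single cell line was used, with no genetic difference made between the groups. The labels do not say whether replicates were separate cultures, so p-values measure only the spread between these samples.

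The libraries held 7252597 to 10225448 reads on 3′ UTR entries, of which 477824 to 833410 were T>C reads. The T>C share of the libraries was 8.74 to 8.86% in DMSO and 6.34 to 6.71% in C646, and the groups did not overlap. No unlabelled library was analysed here, so conversions from sequencing errors were not subtracted. All 9 myeloid markers looked up (among them CD33, SPI1, LYZ and HOXA9) were found in every library, with a summed level of 3351 to 3675 CPM in DMSO and 3551 to 3783 CPM in C646. LYZ made up most of these sums, and single markers differed between the groups without overlap. SPI1 had 1367 to 1759 reads in DMSO and 706 to 842 in C646, and CD33 1228 to 1762 and 1009 to 1042, while PTPRC had 100 to 190 and 206 to 408, and FLT3 734 to 1266 and 1358 to 2103. Of 6 markers of other cell types, CD3E, HBB and ALB were at 0 everywhere, and the sum over all 6 was 0.539 to 1.90 CPM in DMSO and 2.18 to 3.68 CPM in C646; the part of these differences in the results was not tested. In bulk samples such as these, fewer cells of a type and less RNA per cell cannot be told apart.

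In the integrated stress response, kinases that sense unfolded proteins, amino acid shortage, haem shortage or viral RNA phosphorylate the initiation factor eIF2, which lowers translation in general while favouring that of a few messages with upstream reading frames. ATF4 and ATF5 are such messages, so the level of their RNA does not give the level of their protein. ATF4 protein binds, with C/EBP family partners, composite elements in genes for amino acid supply, redox balance and feedback, and it acts upstream of ATF3 and DDIT3 (CHOP). PPP1R15A (GADD34) closes the loop by directing a phosphatase to eIF2.

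Promoters and 3′ UTRs of the 10 genes were searched for letters tied to this pathway and to unstable RNA. Promoters came from RefSeq (GRCh38.p14) and ran from 250 bases before to 50 bases after each annotated start; all 10 genes matched. The composite element TGATGNAA, searched on both strands, was found in 3 of the 10 genes (ASNS, ATF3 and CHAC1) and in 3.62% of all 35116 promoters, or 4.46% of 27305 genes. The stricter form TGATGCAA, which overlaps it, was found in CHAC1 alone and in 0.866% of promoters. The cyclic AMP response element TGACGTCA was found in PPP1R15A and in 1.85% of promoters, and a heat shock element, searched by its 13-base consensus, in none of the 10 and in 0.490% of promoters. The 4 promoter matches are shown in the direction of the gene, with the element in capitals. A match is a description of these letters and not of binding.
ASNS, chr7:97872458-97872487, minus strand: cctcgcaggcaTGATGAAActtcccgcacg
ATF3, chr1:212565205-212565234, plus strand: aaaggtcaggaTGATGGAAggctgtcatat
CHAC1, chr15:40953251-40953280, plus strand, element on the opposite strand: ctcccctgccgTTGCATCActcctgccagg
PPP1R15A, chr19:48872352-48872381, plus strand: gcctctcttcgTGACGTCAgcacgccgggc
Counted from an annotated start, the matches began at base −68 in ASNS, −191 in ATF3, −209 in CHAC1 and −58 in PPP1R15A.

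The deposited 3′ UTR entries (GRCh38) ran from 84 bases in ATF4 to 1689 bases in SESN2, and 96.4 to 100% of their bases lay in annotated UTRs of the same gene in GENCODE v44. That of ATF5 overlapped the entry of MIR4751 at one end. The pentamer ATTTA, the core of AU-rich elements that mark many short-lived messages, was read on the transcribed strand. It occurred 3 times in the entry of ATF3, 2 times in DDIT3, 2 times in PPP1R15A and 1 time in CHAC1, and in no entry of the other 6 genes. As many or more were found in 58.1% of 1177 entries of like length (within 20%) for ATF3, 10.2% of 372 for DDIT3, 4.27% of 117 for PPP1R15A and 69.6% of 867 for CHAC1. The short entries of DDIT3 and PPP1R15A are shown because each holds its pentamers, in capitals, within 1 window.
DDIT3, chr12:57516611-57516640, minus strand: gtacATTTATTTAttactgtccctatctat
PPP1R15A, chr19:48875990-48876019, plus strand: tataATTTAttaactATTTAttttttctaa

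C646 libraries held more DDIT4, PPP1R15A and CHAC1 RNA than DMSO libraries in both T>C reads and all reads, by 2.59 to 7.04-fold and by 4.99 to 6.89-fold. ATF3 and DDIT3 were higher by about the same factor as each other, 1.97 and 1.98-fold in T>C reads and 2.66 and 2.55-fold in all reads. ATF4 itself had fewer T>C reads in C646 and a like number of all reads. ATF5 and TRIB3 did not separate by group, ASNS stood a little higher in C646, and SESN2 was hardly detected. Levels below are given in CPM, counts per 1e+06 reads of a library on 3′ UTRs after trimmed-mean (TMM) scaling; T>C reads were scaled by the same all-read totals.

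**Figure D1:**
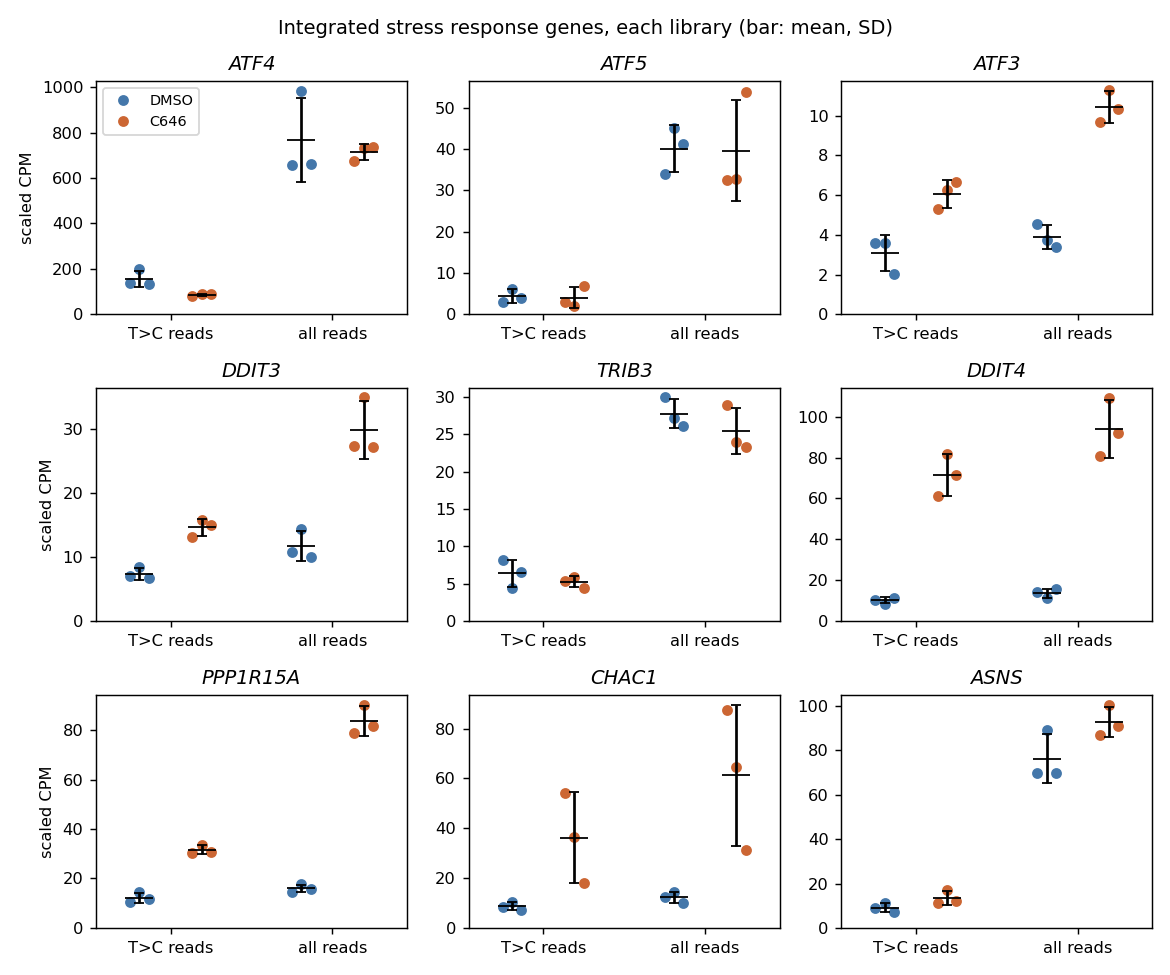
Levels of the 9 detected genes in the 6 libraries, as scaled CPM on a linear axis from 0 that differs between panels; points are libraries (DMSO blue, C646 orange), horizontal bars means and vertical bars SD (n = 3). The C646 points lie above all DMSO points in T>C reads and all reads for ATF3, DDIT3, DDIT4, PPP1R15A and CHAC1, and below them for the T>C reads of ATF4.

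A gene was called changed where edgeR's quasi-likelihood test over all genes gave an adjusted p no higher than 0.01 and the log2 fold change reached 1 in size. Of 7722 genes tested in T>C reads, 33.0% were called lower and 2.97% higher in C646, with a median log2 fold change of −0.83. Of the 9 stress response genes tested, 0 met the cutoffs for lower and 3 (DDIT4, PPP1R15A and CHAC1) for higher. Of 10851 genes tested in all reads, 1.88% were called lower and 5.89% higher. Here 0 of the 9 met the cutoffs for lower and 5 (ATF3, DDIT3, DDIT4, PPP1R15A and CHAC1) for higher. By the libraries alone, all C646 values lay above all DMSO values in T>C reads for 6 of the 9 genes, against 6.46% of all genes, and below them for 1 (ATF4), against 55.8%. In all reads they lay above for 5, against 24.5%, and below for 0, against 23.1%. Since this contrast was known when the genes were picked, nothing is read from these counts. ATF3 at 0.98 and DDIT3 at 0.99 lay just under the fold cutoff in T>C reads, and PPP1R15A at 1.37 was the nearest above it.

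The scaling of T>C reads moves these values together. Scaling T>C reads to themselves sets the median gene near 0 (a shift of 0.83 on the log2 scale). With it 6 of the 9 genes met the cutoffs for higher, ATF3, DDIT3 and ASNS being added. Among all genes, those called higher rose from 229 to 708. The log2 fold change of ATF4 was then −0.01, while those of ATF5 (0.72) and TRIB3 (0.54) turned positive.

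ATF4, which encodes the central transcription factor of the response, had the most reads of the 10. The DMSO libraries held 1314, 1424 and 976 of its T>C reads, and the C646 libraries 619, 727 and 904. Scaled, that was 138, 197 and 131 CPM in DMSO and 81.9, 89.1 and 89.7 CPM in C646, and the groups did not overlap. The log2 fold change was −0.84 ± 0.15 (SE), against −0.83 for the median gene, which put ATF4 at percentile 49.6 of all genes tested. All reads of ATF4 came to 658, 982 and 663 CPM in DMSO and 673, 734 and 738 CPM in C646. The groups overlapped, with DMSO replicate 2 the highest of the 6, and the log2 fold change was −0.10 ± 0.16.

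The share of ATF4 reads with a conversion was 21.0, 20.1 and 19.8% in DMSO and 12.2, 12.1 and 12.2% in C646. These shares hardly varied within a group and were set apart between groups. With 4921 to 7436 reads per library behind them they were the most deeply counted shares of the 10.

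ATF5, the paralogue of ATF4 that is also controlled at translation, had few T>C reads. In DMSO they were 28, 45 and 29 and in C646 23, 17 and 69, or 2.95, 6.24 and 3.90 CPM against 3.04, 2.08 and 6.84 CPM. The groups overlapped, and C646 replicate 3 was the highest of the 6. The log2 fold change was −0.09 ± 0.40 and became −0.76 without C646 replicate 3 and 0.24 without DMSO replicate 2. All reads of ATF5 were 33.9, 45.1 and 41.3 CPM in DMSO and 32.4, 32.7 and 53.9 CPM in C646, where the same library again stood highest.

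ATF3, a stress-induced factor of the same bZIP class, had the fewest reads of the 9 detected genes. It had 34, 26 and 15 T>C reads in DMSO and 40, 51 and 67 in C646, or 3.58, 3.60 and 2.02 CPM against 5.29, 6.25 and 6.65 CPM. All reads were 4.53, 3.74 and 3.37 CPM in DMSO and 9.65, 11.3 and 10.3 CPM in C646. The groups did not overlap in either measure. The log2 fold change was 0.98 ± 0.34 in T>C reads and 1.41 ± 0.27 in all reads.

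DDIT3, whose product CHOP forms dimers with C/EBP proteins and promotes apoptosis under lasting stress, gave similar values from more reads. Conversions were seen in 67, 61 and 50 of its reads in DMSO and in 100, 129 and 151 in C646, or 7.06, 8.46 and 6.73 CPM against 13.2, 15.8 and 15.0 CPM. All reads were 10.8, 14.4 and 9.96 CPM in DMSO and 27.4, 35.0 and 27.2 CPM in C646. Every C646 library lay above every DMSO library in both measures. The log2 fold change was 0.99 ± 0.23 in T>C reads and 1.35 ± 0.20 in all reads.

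TRIB3, a pseudokinase that binds ATF4 and CHOP and dampens their activity, showed no separation. It had 77, 32 and 49 T>C reads in DMSO and 41, 48 and 45 in C646, and its log2 fold change was −0.29 ± 0.31. All reads were 29.9, 27.2 and 26.1 CPM in DMSO and 29.0, 24.0 and 23.3 CPM in C646. The groups overlapped in both measures, and the log2 fold change of all reads was −0.13 ± 0.17.

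SESN2, a sestrin that restrains mTORC1, had 0 reads in all DMSO libraries and in C646 replicates 1 and 3, and 2 reads, 1 of them with a conversion, in C646 replicate 2. Both groups stayed under 3 counts per library, the level taken as the limit that a count of 0 allows (0.298 to 0.416 CPM), so no fold was computed and a difference was not detectable at this depth. The entry counted is 1689 bases long.

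DDIT4 (REDD1), the other mTORC1 inhibitor of the set, differed most. It had 98, 62 and 85 T>C reads in DMSO and 461, 668 and 721 in C646, or 10.3, 8.60 and 11.4 CPM against 61.0, 81.9 and 71.5 CPM. All reads were 14.0, 11.2 and 15.6 CPM in DMSO and 80.9, 109 and 92.1 CPM in C646. The lowest C646 library lay far above the highest DMSO library in both measures. The fold change was 7.04 in T>C reads (log2 2.82 ± 0.19) and 6.89 in all reads (log2 2.78 ± 0.18).

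PPP1R15A, the regulatory subunit that brings protein phosphatase 1 to eIF2, had 100, 104 and 87 T>C reads in DMSO and 229, 275 and 311 in C646. That was 10.5, 14.4 and 11.7 CPM against 30.3, 33.7 and 30.9 CPM. All reads went from 14.6, 17.6 and 15.8 CPM in DMSO to 78.7, 90.3 and 81.6 CPM in C646. The groups did not overlap, and the difference was larger in all reads, 5.23-fold (log2 2.39 ± 0.16), than in T>C reads, 2.59-fold (log2 1.37 ± 0.19).

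CHAC1, which degrades glutathione, had 78, 76 and 54 T>C reads in DMSO and 411, 298 and 181 in C646. Scaled, the T>C reads were 8.22, 10.5 and 7.27 CPM in DMSO and 54.4, 36.5 and 18.0 CPM in C646, and all reads were 12.3, 14.6 and 9.83 CPM against 87.7, 64.7 and 31.4 CPM. All C646 libraries were above all DMSO libraries, but they spread widely, the T>C CPM of replicate 1 being 3.03 times that of replicate 3. The log2 fold change was 2.06 ± 0.27 in T>C reads, from 1.65 to 2.39 when single libraries were left out, and 2.32 ± 0.30 in all reads.

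ASNS, asparagine synthetase, had 85, 80 and 53 T>C reads in DMSO and 85, 140 and 123 in C646, or 8.96, 11.1 and 7.14 CPM against 11.2, 17.2 and 12.2 CPM. C646 replicate 1 lay only just above DMSO replicate 2, and the log2 fold change was 0.58 ± 0.24. All reads were 70.0, 89.0 and 69.7 CPM in DMSO and 87.0, 100 and 90.9 CPM in C646. These overlapped, and the log2 fold change was 0.28 ± 0.14.

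The transcription factor genes and the detected genes of the other roles, called targets here, were also set side by side. Each gene was taken as log2(CPM + 0.5) relative to its own DMSO mean and averaged per library. ATF3 and DDIT3, counted here as factors, also lie downstream of ATF4. In T>C reads the 4 factor genes averaged 0.06, 0.09 and 0.47 in the C646 libraries and the 5 detected target genes 1.31, 1.45 and 1.02. In all reads the factor genes averaged 0.49, 0.67 and 0.73 and the targets 1.58, 1.60 and 1.28. Each C646 library thus had a higher target than factor average, but single genes crossed: ATF3 and DDIT3 exceeded the targets TRIB3 and ASNS in both measures. The median log2 fold change was 0.44 for factor genes and 1.37 for targets in T>C reads, and 0.67 and 2.32 in all reads.

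**Figure D2:**
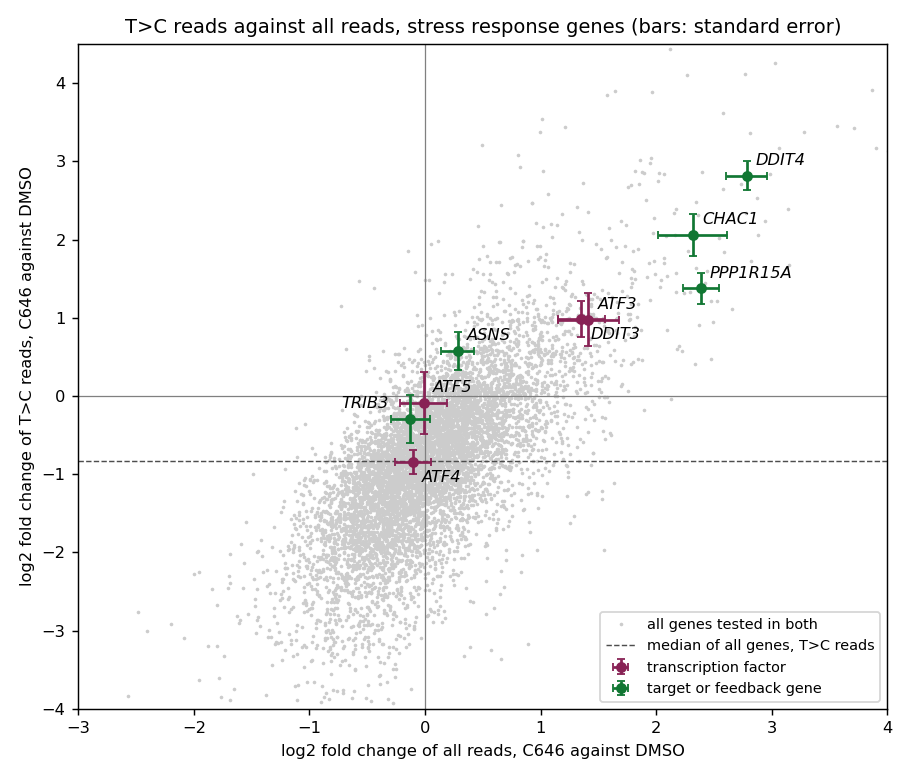
Log2 fold change of T>C reads against that of all reads (C646 against DMSO) for 7722 genes tested in both (grey; 68 lie outside the axes) and the 9 detected stress response genes, with standard errors as bars. ATF4, ATF5 and TRIB3 lie near 0 on the all-read axis, ATF4 on the dashed median of T>C reads (−0.83), and DDIT4, CHAC1 and PPP1R15A lie at the upper right.

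At a steady level, the share of a gene's reads that carry a conversion depends on how fast its RNA is replaced. It needs no scaling between libraries and also depends on the number of T bases that a read covers. That number was 19.5 to 39.4 per read for the 9 genes. Exposure to C646 began before the 1 h of labelling, so RNA made earlier under C646 carries no 4sU. For shares in C646, turnover and the time at which RNA was made were not separated. In DMSO the median gene had a T>C share of 13.3%, and only 5.15% of the 7722 genes were above 50%. Of the 9 detected genes, 5 were above 50%: DDIT3 at 64.0 ± 4.7% (SD, n = 3), CHAC1 at 71.0 ± 3.8%, DDIT4 at 74.5 ± 1.8%, PPP1R15A at 76.1 ± 5.2% and ATF3 at 78.5 ± 18.2%. The lower end of ATF3's spread came from DMSO replicate 3, with 15 T>C reads of 25, and the upper from replicate 2, with 26 of 27. These 5 stood between percentile 98.0 and percentile 99.5 of all genes tested. The other 4 lay between 10.7 and 22.9%: TRIB3 at 22.9 ± 5.8%, ATF4 at 20.3 ± 0.6%, ASNS at 11.8 ± 1.4% and ATF5 at 10.7 ± 2.8%. Measured per T base rather than per read, the conversion rate put the same 5 genes between percentile 97.8 and percentile 99.0 and the other 4 between percentile 43.3 and percentile 69.7. The 5 genes with shares above 50% in DMSO were also the 5 that met the cutoffs for higher in all reads. Over all genes, 68 of the 398 with shares above 50% were called higher in all reads (17.1%), as were 409 of the other 7324 (5.58%). The DMSO libraries enter both values and the genes were picked with this contrast known, so the match is given as a description and nothing particular to them is read from it.

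**Figure D3:**
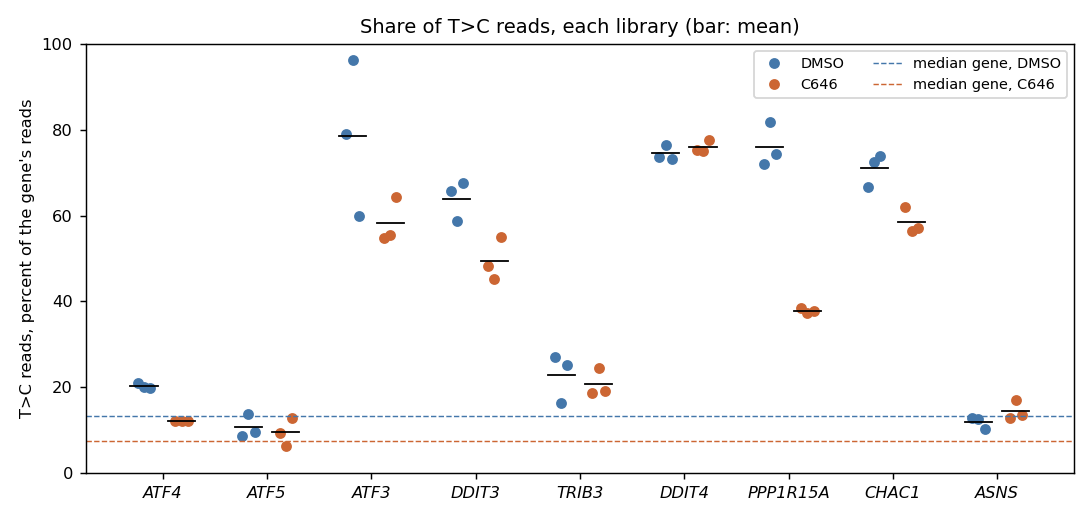
T>C reads as a percent of each gene's reads in every library (DMSO blue, C646 orange; black bars are means of 3), with the median gene of each group as dashed lines (13.3% in DMSO, 7.37% in C646). PPP1R15A falls from 76.1 to 37.9% while DDIT4 stays at 74.5 and 76.0%.

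Between the groups, the T>C share of the median gene was 13.3% in DMSO and 7.37% in C646. Tested as the odds of a T>C read against another read, 38.3% of 7722 genes were called lower and 0.790% higher, and the median log2 odds ratio was −1.0. Of the 9 stress response genes, 1 (PPP1R15A) met the cutoffs for lower and 0 for higher. All C646 shares lay below all DMSO shares for 4 of them (ATF4, DDIT3, PPP1R15A and CHAC1), against 64.5% of all genes, and above for 1 (ASNS), against 2.18%.

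The PPP1R15A share was 71.9, 81.9 and 74.4% in DMSO and 38.5, 37.3 and 37.8% in C646, a log2 odds ratio of −2.38 ± 0.31. Reads without a conversion were 3.78 ± 0.51 CPM in DMSO and 51.9 ± 4.2 CPM in C646. Of the reads that C646 libraries held beyond the DMSO mean, 28.7% were thus T>C reads. This was below the share that PPP1R15A had in DMSO.

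For DDIT4 the corresponding values were different. Its share was 73.7, 76.5 and 73.3% in DMSO and 75.3, 75.1 and 77.7% in C646, with a log2 odds ratio of 0.13 ± 0.31, and 76.3% of its added reads were T>C reads. CHAC1 (66.7, 72.4 and 74.0% against 62.0, 56.4 and 57.1%) and DDIT3 (65.7, 58.7 and 67.6% against 48.3, 45.1 and 55.1%) lay between, with groups that did not overlap. Their log2 odds ratios were −0.77 ± 0.33 and −0.85 ± 0.38, and 56.3% and 40.0% of their added reads were T>C reads. The shares of ATF3 overlapped between groups (60.0 to 96.3% in DMSO, 54.8 to 64.4% in C646), and 45.8% of its added reads were T>C reads. No test of these differences between the genes was made.

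The log2 odds ratio of ATF4 was −0.88 ± 0.12, close to the median gene. Those of ATF5 (−0.15 ± 0.36) and TRIB3 (−0.18 ± 0.37) were nearer 0, with overlapping groups. ASNS was the only one of the 9 whose share was higher in every C646 library, at 12.8, 12.5 and 10.2% in DMSO and 12.9, 17.1 and 13.4% in C646. The margin between the nearest pair was small, and the log2 odds ratio was 0.33 ± 0.25.

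The rest of the pathway was taken from a list of 105 other genes, and these were tested over all genes. In T>C reads 90 could be tested, of which 13 were called lower and 8 higher, against 33.0% and 2.97% of all genes. The median log2 fold change of the list was −0.37, against −0.83 for all genes. With T>C reads scaled to themselves the counts were 1 lower and 23 higher, against 604 and 708 of all genes. In all reads 97 could be tested, of which 1 was called lower and 18 higher, against 1.88% and 5.89% of all genes. The median was 0.12 for the list and −0.003 for all genes. In T>C share, 21 of 90 were called lower and 3 higher, against 38.3% and 0.790% of all genes. The list was chosen with earlier results of these data known, so nothing particular to it is read from these counts.

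**Figure D4:**
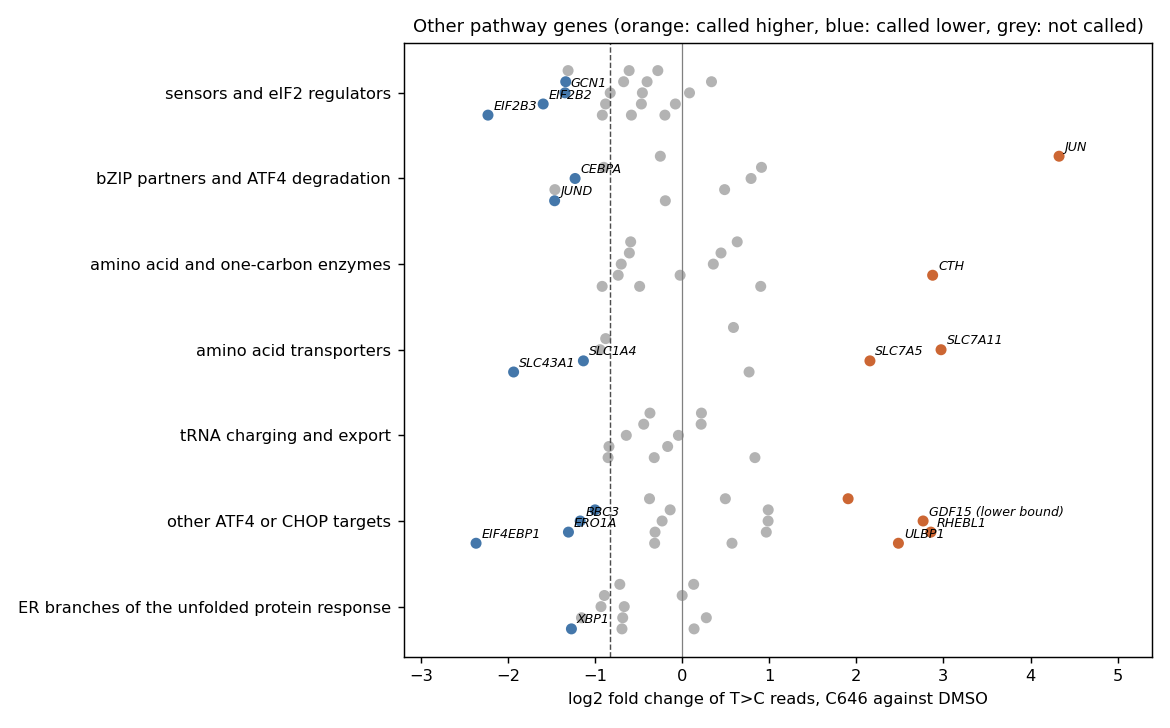
Log2 fold change of T>C reads for the 90 tested pathway genes other than the 10, by role; orange points were called higher (8), blue lower (13), grey not called, and the dashed line is the median of all genes (−0.83). Genes named in the text are labelled, GDF15 is drawn at its lower bound, and JUN lies farthest right at 4.33.

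Among kinases, eIF2 subunits and exchange factors, 4 of 19 were called lower in T>C reads and 0 higher by edgeR, as by DESeq2, with 1 higher at an unadjusted p under 0.05. Of all genes, 33.0% were called lower and 2.97% higher, with a median log2 fold change of −0.83. EIF2B3 and EIF2B2, subunits of the exchange factor that reloads eIF2, had log2 fold changes of −2.23 ± 0.65 (adjusted p = 0.00460) and −1.60 ± 0.46 (adjusted p = 0.00472), and each call was lost on leaving out any of 5 of the 6 single libraries. EIF2B3 had 0, 4 and 10 T>C reads in C646, and its value was −3.24 without C646 replicate 3. GCN1, which activates the amino acid sensing kinase, fell by 1.35 ± 0.27 on the log2 scale (adjusted p = 0.000162). The remaining call, named after its value was seen, was EIF2AK1, the haem-sensing kinase, at −1.34 ± 0.31 (adjusted p = 0.000588), and neither it nor that of GCN1 was lost on leaving out any single library. None of the 4 was called in all reads. Their self-scaled values stayed negative. With that scaling only 1 gene of the whole list was called lower, against 13 in the main fit. In all reads 5.89% of all genes were called higher and 1.88% lower. Of this role 2 of 22 were called higher and 0 lower by edgeR and DESeq2, with 3 lower at an unadjusted p under 0.05. These 2, named after their values were seen, were EIF2AK3, the sensor kinase PERK, at 1.59 ± 0.36 (adjusted p = 0.00487), and OMA1, a mitochondrial protease, at 1.35 ± 0.29 (adjusted p = 0.00353). Each all-read call was lost on leaving out any of 3 single libraries. The T>C reads of EIF2AK3 gave −0.08 ± 0.57 (adjusted p = 0.916), and its T>C share was called lower, with means of 58.4% in DMSO and 19.9% in C646 (adjusted p = 0.00237).

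Among bZIP partners and degradation factors of ATF4, 2 of 10 were called lower in T>C reads and 1 higher. The shares of all genes were 33.0% and 2.97%. JUN, an AP-1 subunit, had 6, 4 and 4 T>C reads in DMSO and 74, 117 and 117 in C646. It rose by 4.33 ± 0.38 on the log2 scale in T>C reads (adjusted p = 1.65e-10) and by 4.51 ± 0.27 in all reads (adjusted p = 4.87e-08). JUND and CEBPA, a C/EBP factor of the myeloid lineage, fell in T>C reads by 1.47 ± 0.19 (adjusted p = 3.43e-07) and 1.23 ± 0.16 (adjusted p = 4.43e-07) on the log2 scale. Neither was called in all reads. The median gene stood at −0.83 in T>C reads. When these were scaled to themselves, only 1 gene of the whole list was called lower. In all reads 5.89% of all genes were called higher and 1.88% lower. Of this role 3 of 12 were called higher and 0 lower by edgeR and DESeq2, with 1 lower at an unadjusted p under 0.05. Beside JUN these were, named after their values were seen, the C/EBP factor CEBPB at 1.27 ± 0.18 (adjusted p = 0.000190) and CREBRF at 1.13 ± 0.20 (adjusted p = 0.000851).

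Among genes of amino acid supply, SLC7A11, the cystine carrier, had 28, 29 and 21 T>C reads in DMSO and 180, 219 and 263 in C646, and rose by 2.97 ± 0.24 on the log2 scale (adjusted p = 3.05e-11). SLC7A5, a carrier of large neutral amino acids, rose by 2.16 ± 0.22 (adjusted p = 5.19e-09). Both also rose in T>C share and in all reads, though the all-read call of SLC7A5 was lost without DMSO replicate 1 or C646 replicate 3.

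The carriers SLC43A1 and SLC1A4 were called lower, at −1.94 ± 0.51 (adjusted p = 0.00193) and −1.14 ± 0.28 (adjusted p = 0.00126), making 2 lower and 2 higher of 8 transporters tested (25.0% each way), against 33.0% and 2.97% of all genes. Both calls depended on single libraries: that of SLC43A1 was lost without DMSO replicate 1 or 2, and that of SLC1A4 without C646 replicate 3. The median gene stood at −0.83 in T>C reads. Of 12 enzymes of amino acid and one-carbon metabolism, CTH alone was called in T>C reads, higher at 2.88 ± 0.71 (adjusted p = 0.00110). CTH, which makes cysteine, had only 1, 0 and 8 T>C reads in DMSO, and its call was lost without DMSO replicate 1 or 2 or C646 replicate 2. In all reads 5.89% of all genes were called higher and 1.88% lower. Of the enzymes 2 of 12 were called higher and 0 lower by edgeR and DESeq2, with 2 lower at an unadjusted p under 0.05. These were CTH at 1.82 ± 0.45 (adjusted p = 0.00720) and, named after its value was seen, the proline synthesis gene ALDH18A1 at 1.18 ± 0.23 (adjusted p = 0.00204), which was also the 1 enzyme called lower in T>C share. The all-read call of CTH was lost on leaving out any of 4 single libraries and that of ALDH18A1 any of 2. Of 8 transporters, 2 (SLC7A11 and SLC7A5) were called higher in all reads and 0 lower by edgeR, as by DESeq2, with 3 lower at an unadjusted p under 0.05. Of 11 genes for tRNA charging and export, 0 were called in either direction in T>C reads by edgeR, as by DESeq2, with 2 lower and 1 higher at an unadjusted p under 0.05. In all reads 1 of 13 was called higher and 0 lower by edgeR, as by DESeq2, with 5 lower at an unadjusted p under 0.05. This was TARS1, named after its value was seen, at 1.21 ± 0.19 (adjusted p = 0.000535), and the call was lost without C646 replicate 3.

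Of 18 other ATF4 or CHOP targets tested, 4 were called lower and 4 higher in T>C reads, and 1 lower and 6 higher in all reads. The shares of all genes were 33.0% and 2.97% in T>C reads, and 1.88% and 5.89% in all reads. The median gene stood at −0.83 in T>C reads. EIF4EBP1, a repressor of cap-dependent translation, fell by 2.37 ± 0.26 on the log2 scale in T>C reads (adjusted p = 1.11e-08) and by 1.13 ± 0.22 in all reads (adjusted p = 0.00172), the latter call being lost without DMSO replicate 2 or C646 replicate 3. BBC3, which encodes the apoptosis factor PUMA, fell by 1.17 ± 0.20 (adjusted p = 1.29e-05), and ERO1A, an oxidase of the endoplasmic reticulum, by 1.31 ± 0.33 (adjusted p = 0.00134, lost without DMSO replicate 1) in T>C reads.

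GDF15, a stress-induced cytokine, had no T>C read (0 of them in each of the 3) in DMSO and 17, 18 and 33 in C646, so that it was at least 6.80-fold higher against a floor of 3 counts per library. In all reads it rose by 2.81 ± 0.56 on the log2 scale (adjusted p = 0.00205). ULBP1, a ligand of an activating receptor on natural killer cells, rose by 2.48 ± 0.63 in T>C reads (adjusted p = 0.00152) and 2.34 ± 0.42 in all reads (adjusted p = 0.00112). RHEBL1, a relative of the mTORC1 activator RHEB, rose by 2.85 ± 0.74 in T>C reads (adjusted p = 0.00177). The T>C calls of ULBP1 and RHEBL1, which had at most 6 T>C reads in any DMSO library, were each lost on leaving out any of 3 single libraries.

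In the IRE1 and ATF6 branches of the unfolded protein response, 1 of 12 genes was called lower in T>C reads and 0 higher by edgeR, as by DESeq2, with 8 lower and 0 higher at an unadjusted p under 0.05. The shares of all genes were 33.0% and 2.97%, and their median log2 fold change was −0.83. The gene called was XBP1, the factor activated by IRE1, which fell by 1.27 ± 0.15 on the log2 scale (adjusted p = 5.51e-08). Its all-read value was −0.26 ± 0.14 and was not called. In all reads 5.89% of all genes were called higher and 1.88% lower. Of the 12 genes, edgeR called 2 higher and 0 lower and DESeq2 1 and 0, with 1 lower at an unadjusted p under 0.05. These 2, named after their values were seen, were HSP90B1, a chaperone of the endoplasmic reticulum, at 1.22 ± 0.26 (adjusted p = 0.00336), and EDEM1, a factor of protein disposal there, at 1.20 ± 0.30 (adjusted p = 0.00812). The call of HSP90B1 was lost on leaving out any of 3 single libraries and that of EDEM1 any of 4.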

How the data were processed

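The data were MOLM-13 SLAM-seq libraries, 3 with C646 and 3 with DMSO, made with QuantSeq 3′ kits. SLAM-Dunk v0.4.1 was run by the authors on the GRCh38 genome, and they deposited, per library and 3′ UTR entry, raw counts of all reads and of T>C reads (at least 1 conversion), CPM, T coverage (signal) and the conversion rate as a fraction. The study's own test took reads with at least 2 conversions, which these counts cannot separate. T coverage gave T bases per read, and reads divided by CPM gave the filtered total of a library.

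Counts were summed per Entrez identifier and tested with edgeR 4.0.16 (filterByExpr, TMM, quasi-likelihood, Benjamini-Hochberg over all genes kept). T>C reads used the TMM-scaled totals of all reads as library size. The T>C share was tested as T>C against other reads with a library term. The scripts were tested on simulated data. Single-library log2 values used a pseudocount of 0.5 CPM. Depth per sample is given above; ranges and floors cover counting error only, since reads carry no molecular identifiers. Alternatives were other scalings, DESeq2 1.42.0, other filters, the single entry with the most reads, a replicate block and leaving out each library.

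The members and lists were chosen with earlier results of these data known. Named genes were the 10 members; of the other pathway genes, up to 3 per role and direction with the largest called change in T>C reads and up to 3 per direction in all reads; and the 5 genes nearest to ATF4, of which 1 is not reported here. Promoters came from RefSeq GRCh38.p14. SQSTM1 was listed at 0 in every library.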

Additional observations from a re-analysis of the deposited data

How the results depend on the processing

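Of 303 member values recomputed under alternatives, 286 stayed within 1 SD of replicates, 17 moved further and 0 that met the cutoffs changed sign; most of the moved values came from scaling T>C reads to themselves, which raised them together. Members that met the cutoffs for higher in T>C reads numbered 3, or 6 with that scaling. They numbered 5 with all filtered reads as library size (an alternative chosen after seeing the data). Without DMSO replicate 2 or without C646 replicate 1 they numbered 4, DDIT3 being added. All genes called higher numbered 229 in the main fit, and 708 and 306 with those scalings. Without those libraries they numbered 209 and 263. In all reads the same 5 members met the cutoffs for higher under every alternative run. All genes called higher there numbered 639 in the main fit and 447 to 1014 under the alternatives. TGATGCAA in place of TGATGNAA left 1 member with a match instead of 3.

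Of the other pathway genes, 13 were called lower and 8 higher in T>C reads. The counts were 1 and 23 with T>C reads scaled to themselves, 8 and 3 with a minimum mean of 50 T>C reads (fewer genes tested), and 8 and 13 with all filtered reads as library size (chosen after seeing the data). Leaving out single libraries gave 8 (without DMSO replicate 1) to 14 lower and 7 to 11 higher. In all reads the 1 lower and 18 higher became 0 lower with all filtered reads, and 0 to 1 lower and 11 to 19 higher when single libraries were left out, 0 and 11 being reached without DMSO replicate 2 and without C646 replicate 3. For T>C share, leaving out libraries gave 14 to 22 lower and 2 to 3 higher. Apart from the fewer genes at the higher minimum, the cause was not tested. The labels tie same-numbered libraries by the number alone. Correlations of their deviations ran from 0.030 to 0.065 in T>C reads and from −0.0014 to 0.23 in all reads. The mean over the other pairs was −0.023 in T>C reads and −0.064 in all reads. With a replicate block, 13 were called lower and 9 higher in T>C reads, 1 and 18 in all reads and 19 and 3 in T>C share.

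Over all genes, T>C calls were 604 lower and 708 higher when scaled to themselves, and 1038 and 125 at the higher minimum. All-read calls were 90 lower and 1014 higher with all filtered reads, and 120 lower without DMSO replicate 2 and 321 lower without C646 replicate 1. Depth limits ATF3, ATF5 and TRIB3, whose T>C reads numbered 15 to 77 per library. SESN2 was hardly detected, and the reason was not tested.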

Other observations

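Among 2842 genes whose T>C reads averaged 50 or more, those most like ATF4 over its 12 values (T>C reads and all reads of the 6 libraries, each as log2 relative to its own DMSO mean) were compared by root mean square difference. SNHG29, a small nucleolar RNA host gene, was the nearest at 0.097, with log2 fold changes of −0.86 in T>C reads and −0.11 in all reads. RPS24, a ribosomal protein gene, followed at 0.104, with −0.77 and −0.08. PALM2AKAP2 was also among the 5 nearest, at 0.130, listed with the same values under 2 Entrez identifiers. The T>C shares in DMSO were 5.22% for SNHG29, 1.63% for RPS24 and 22.3% for PALM2AKAP2, against 20.3% for ATF4.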
